A study of Mus musculus with 9 samples.

Results

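Molecular chaperones hold unfolded proteins and help them reach their folded state. The 10 chaperone genes described here were chosen by symbol from the deposited count table, and all 10 were found among its 16636 genes. Of these, 7 encode proteins of the cytosol and nucleus (Hspa1a, Hspa1b, Hspa8, Hsp90aa1, Hsph1, Dnajb1 and Hspb1) and 3 encode proteins of the endoplasmic reticulum, or ER (Hspa5, Hsp90b1 and Calr). All 10 passed the filter on low counts, which kept 14246 genes. RNA came from E14 cells, a wild-type mouse embryonic stem cell line, kept in the naive state in all groups with the MEK inhibitor PD0325901 (1 µM), the GSK3 inhibitor CHIR99021 (3 µM) and LIF (1000 U/ml). There were 3 groups of 3 samples each, biological replicates per the series' text: untreated cells, cells given a luciferase siRNA as control (siLuc) and cells given siRNA against the cohesin subunit gene Stag3 (siStag3). The siRNA groups were collected after 48 h and received 50 pmol of siRNA by lipid transfection at seeding and again the following day. The labels give no treatment for the untreated group, so lipid and siRNA cannot be told apart in either comparison with it.

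2 transcriptional programs are known to control these genes. Unfolded protein in the cytosol frees heat shock factor 1 (HSF1), which binds heat shock elements and raises the inducible HSP70 genes Hspa1a and Hspa1b, the HSP40 co-chaperone Dnajb1, the HSP110 gene Hsph1 and the small heat shock protein gene Hspb1. Unfolded protein in the ER activates ATF6, IRE1 (encoded by Ern1) and PERK (encoded by Eif2ak3), and ATF6 and XBP1 act with NF-Y on ER stress elements of genes such as Hspa5, which encodes BiP. Hspa8 encodes the constitutive HSP70 and Hsp90aa1 the HSP90 alpha form. Hsp90b1 encodes GRP94, the HSP90 of the ER, and Calr encodes calreticulin, a lectin chaperone of glycoproteins.

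The promoters of the members are shown first because they can be read without use of the counts. Promoter sequences of the RefSeq annotation of GRCm38.p6 matched 8 of the 10 members, and those of Hsp90aa1 and Hspa8 were not matched. The 250 bases before each start were searched on both strands. The ER stress element, searched on the letters CCAAT and CCACG with any 9 bases between them, was found in all 3 ER members and in none of the 5 cytosolic members searched. It was present in 35 of 27025 genes with a promoter (0.13%). The element is already known from genes such as Hspa5, so its matches here are a description and not a test. Its first letters are a CCAAT box, so each match also counts as one. The windows below are written 5′ to 3′ along the gene, with the ER stress element in capitals, and in Calr and in the second match of Hsp90b1 it lies in the opposite orientation.
Hspa5, chr2:34772010-34772058, plus strand: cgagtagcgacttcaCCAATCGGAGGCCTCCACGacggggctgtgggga
Calr, chr8:84847060-84847108, minus strand: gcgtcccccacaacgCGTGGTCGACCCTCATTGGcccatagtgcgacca
Hsp90b1, chr10:86705518-86705671, minus strand: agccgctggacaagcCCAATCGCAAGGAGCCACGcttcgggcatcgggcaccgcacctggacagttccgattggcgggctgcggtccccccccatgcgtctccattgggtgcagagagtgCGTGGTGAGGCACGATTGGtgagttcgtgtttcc

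A short heat shock element of 2 facing units, searched as GAANNTTC or TTCNNGAA, was found in 4 of the 5 cytosolic members and in none of the 3 ER members. It is a common match, present in 3932 of 27025 genes (14.5%). The stricter 3-unit forms, in which GAA and TTC alternate with any 2 bases between units, were present in 139 of 27025 genes (0.514%) and in none of the 8 members. Dnajb1, with 2 annotated starts, held neither form in these windows. Matches are descriptions of letters and not of bound sites. In the windows below the 2-unit element is in capitals. The windows of Hspa1a and Hspa1b were identical, and over the whole 250 bases these promoters were equal at 247 positions (98.8%).
Hspa1a, chr17:34972238-34972275, minus strand: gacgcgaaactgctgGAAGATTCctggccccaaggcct
Hspa1b, chr17:34959320-34959357, minus strand: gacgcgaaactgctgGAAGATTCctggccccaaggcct
Hspb1, chr5:135887787-135887844, plus strand: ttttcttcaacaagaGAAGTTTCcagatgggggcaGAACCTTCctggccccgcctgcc
Hsph1, chr5:149636347-149636384, minus strand: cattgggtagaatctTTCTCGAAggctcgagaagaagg

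**Figure D1:**
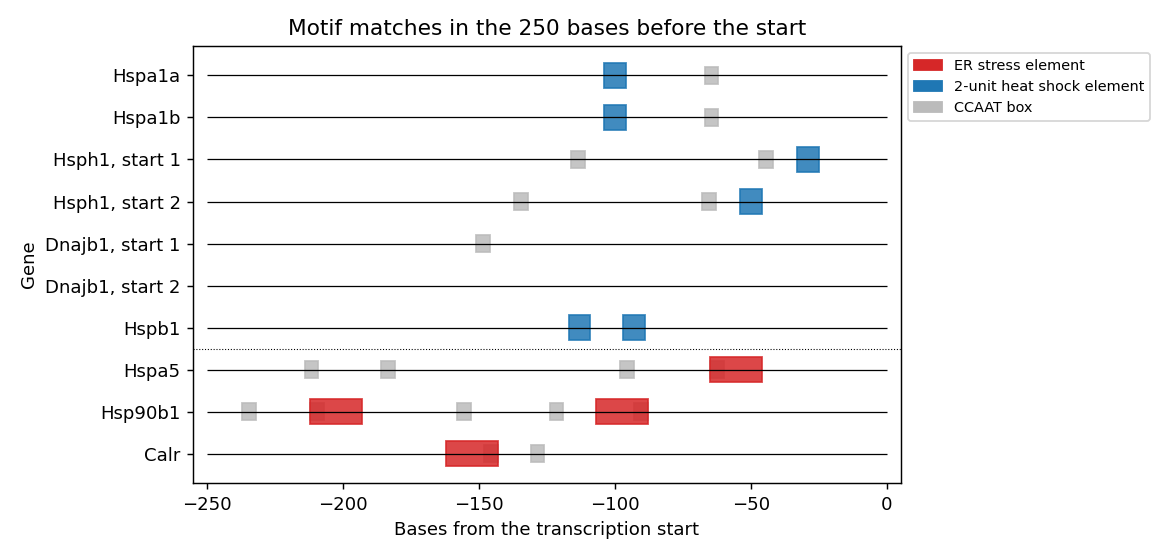
Positions of ER stress elements (red), 2-unit heat shock elements (blue) and CCAAT boxes (grey) in the 250 bases before each annotated start of 8 chaperone genes; the x axis is the distance in bases from the start, and cytosolic genes lie above the dotted line. The red boxes are in Hspa5, Hsp90b1 and Calr, and the blue boxes in Hspa1a, Hspa1b, Hsph1 and Hspb1.

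Total counts ran from 29332436 to 44527534 per library, so that 3 counts, taken as the floor, equal 0.0674 to 0.102 CPM, the count scaled to a common library size. These floors cover counting error only. The column names carry a set number, 1 or 3, whose meaning is not given in the sources used here, and each group has 2 libraries of Set 1 and 1 of Set 3. The set was a term of the fit because libraries had separated by set in earlier results of these data. In that fit 42.7% of all genes tested differed between the sets. Markers of naive stem cells (7 of 7 in the table, among them Pou5f1, Nanog and Esrrb) summed to 4370 to 4810 CPM per library. Summed markers of fibroblasts, primitive endoderm and trophoblast (6, 5 and 5 genes) stayed at or below 5.25, 1.51 and 7.81 CPM in each library. Stag3, the target, was at 13.5 to 15.6 CPM in siStag3, below its 22.5 to 26.7 CPM in siLuc and 24.1 to 28.6 CPM in untreated cells, and fell by 0.71 on the log2 scale against siLuc (SE 0.0722, adjusted p 0.00205 in edgeR).

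The first question is how strongly naive stem cells express these chaperones. Levels of different genes are compared as RPKM, here CPM divided by the length of the principal transcript in kilobases, over the 9 libraries. Hsp90aa1 was highest at 2210 ± 259 RPKM (SD, n = 9), the third gene of all those tested by mean log2 CPM. Hspa8 followed at 1550 ± 89.6 RPKM. The small heat shock protein gene Hspb1 was at 393 ± 57.3 RPKM, above each ER member. Calr was at 285 ± 9.61, Hsp90b1 at 249 ± 17.2 and Hspa5 at 140 ± 8.63 RPKM. The co-chaperones lay lower, with Hsph1 at 68.7 ± 3.87 and Dnajb1 at 23.9 ± 1.38 RPKM. The stress-inducible HSP70 genes were at the bottom, with Hspa1b at 2.17 ± 0.325 and Hspa1a at 0.316 ± 0.0945 RPKM. Among neighbours in this order, only the ranges of Calr and Hsp90b1 overlapped (275 to 305 and 224 to 279 RPKM), and within each of the 9 libraries Calr was the higher of the pair. Together the 10 genes held 1.29% to 1.40% of a library's counts, and the 3 ER members alone held 0.171% to 0.201%.

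**Figure D2:**
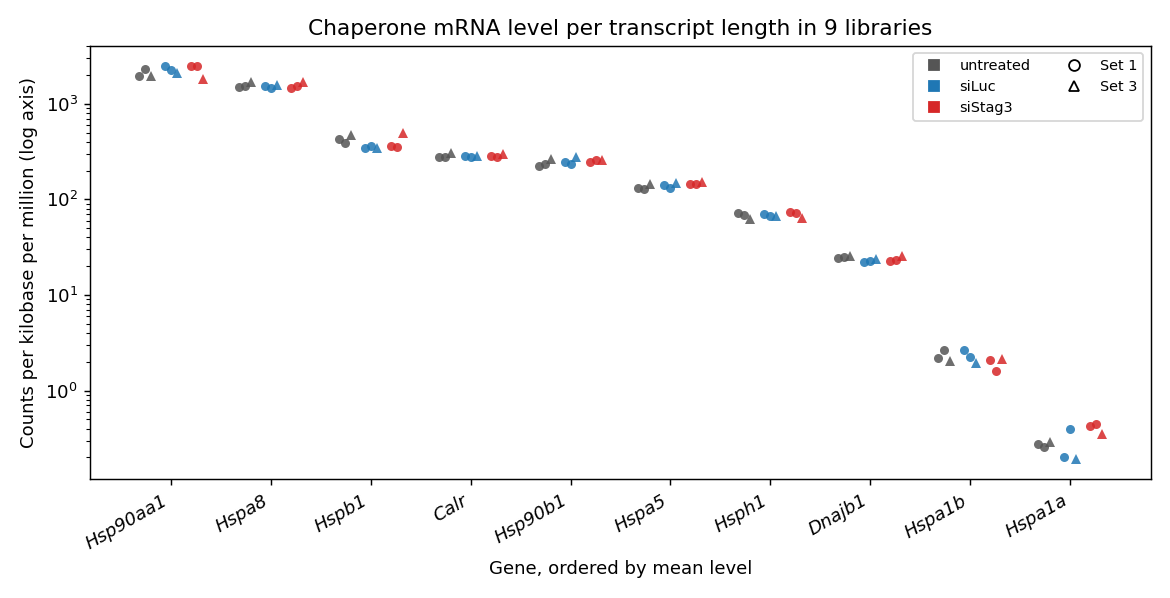
Level of the 10 chaperone mRNAs in RPKM (log axis) for each of the 9 libraries, genes ordered by their mean; colours give the group and shapes the set. Levels run from about 2210 RPKM for Hsp90aa1 to 0.316 for Hspa1a, and the 3 groups lie at similar heights within each gene.

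The constitutive HSP70 gene Hspa8 and the HSP90 alpha gene Hsp90aa1 were far above their ER counterparts, while the inducible HSP70 genes Hspa1a and Hspa1b lay below Hspa5. Hspa8 was 10.1 to 12 times as high as its ER counterpart Hspa5 per length, and Hsp90aa1 was 7.12 to 10.3 times as high as Hsp90b1. The cytosolic HSP90 beta gene Hsp90ab1, from the list of other chaperones, was at 2200 to 2380 RPKM, and the ratio of Hsp90aa1 to it ran from 0.797 to 1.13. Some levels rest on sequence that other genes share. Of the 31-base sequences of its transcripts, Hsp90aa1 shared 51.4% with other genes of GENCODE M21, Hspa8 43.5% and Hspb1 52.3%, mostly with Gm12346, Gm15459 and Hsp25-ps1, which have no row in the count table. Hspa1a shared 63.8% of its own with Hspa1b. Their absolute levels, and the split between Hspa1a and Hspa1b, are therefore uncertain. Hspa1a also overlaps Gm20481 on the opposite strand, and whether counting used strand is not given in the sources used here.

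The comparison of siLuc with untreated cells asks whether transfection with a control siRNA moved the chaperones. Its Set 3 libraries come from experiment 1 in siLuc and experiment 5 in untreated cells, so treatment and experiment cannot be told apart within Set 3. None of the 10 passed the threshold (edgeR quasi-likelihood test with the set as a term, Benjamini-Hochberg adjusted p under 0.05 over 14246 genes), where 4.20% of all genes passed (1.65% higher and 2.55% lower). Hspb1 and Dnajb1 had the smallest unadjusted p of the members (0.00494 and 0.026, edgeR). DESeq2 called Hspb1, and it also called more of all genes than edgeR did. The median log2 fold change was -0.06 over the 7 cytosolic members and 0.05 over the 3 ER members, against 0 over all genes. In 2 members the groups did not overlap, both lower in siLuc. Among all genes, 19.9% had groups that did not overlap (9.59% higher and 10.3% lower).

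Hspb1, whose product binds unfolded proteins without ATP, was at 382, 350 and 427 CPM in the untreated libraries and at 309, 324 and 311 CPM in siLuc (the third value of each being Set 3). Each siLuc library lay below each untreated library. The log2 fold change was -0.29 (SE 0.0847, 95% interval -0.47 to -0.10), with an edgeR adjusted p of 0.0662. Without the siLuc library of Set 3 it was -0.16 (adjusted p 0.314). The DESeq2 Wald test with the set as a term gave -0.29 with an adjusted p of 0.0188. Hspb1 is rich in G and C (60.7%), and across 14226 genes the fold change of this comparison had a Spearman correlation of -0.495 with GC content, a description over genes that are not independent. After a correction of each library for GC content the Hspb1 difference was -0.10 (adjusted p 0.213, edgeR). With that correction 0 of 10 members passed in each treatment comparison, where 7.01% (siLuc against untreated), 6.79% (siStag3 against untreated) and 0.498% (siStag3 against siLuc) of all genes passed. The mitochondrial share of counts also moved with the groups, at 3.48% to 5.33% in untreated and 5.98% to 6.73% in siLuc, and its part in the result was not tested.

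Dnajb1, which delivers substrates to HSP70, was at 73.0, 74.8 and 77.3 CPM in untreated cells and at 66.4, 67.2 and 71.5 CPM in siLuc. The groups did not overlap, but the ranges lay close. In siLuc it was lower by 0.14 on the log2 scale (a value of -0.14, SE 0.0541), with an adjusted p of 0.131 in edgeR. Hsp90aa1 was at 6474, 7491 and 6341 CPM in untreated cells and at 8214, 7472 and 6814 CPM in siLuc, and the groups overlapped. It differed by 0.15 (SE 0.0739, adjusted p 0.215 in edgeR) and by 0.01 after the GC correction. Hspa8 (-0.07), Hsph1 (0.02), Hspa1b (0.00) and Hspa1a (-0.06) differed by less. The ER members Hspa5 (0.05), Hsp90b1 (0.07) and Calr (-0.03) had edgeR adjusted p-values from 0.431 to 0.729.

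The comparison of siStag3 with siLuc sets reduced Stag3 against a control with the same transfection. Its Set 3 libraries come from experiment 5 in siStag3 and experiment 1 in siLuc, and over 14226 genes its fold change had a Spearman correlation of 0.383 with GC content. No member passed (0 of 10, edgeR), where 0.0281% of all genes passed (0.014% in each direction), and no groups were fully apart, where 6.59% of all genes were (3.18% higher and 3.41% lower). DESeq2 called no member either. Hspa1a and Hspb1 had the smallest unadjusted p of the members (0.0395 and 0.0468, edgeR). The medians were 0.05 for the cytosolic and 0.03 for the ER members, against 0 over all genes.

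Hspa1a had the largest difference of the 10 genes and the lowest counts. It was counted 29, 26 and 40 times in the untreated libraries, 19, 43 and 18 times in siLuc and 45, 42 and 32 times in siStag3. In CPM these are 0.813, 0.768 and 0.867 in untreated cells, 0.605, 1.19 and 0.567 in siLuc and 1.26, 1.32 and 1.06 in siStag3. The siStag3 libraries lay above each untreated library, where 4.63% of all genes did (5.38% lay below and 10.0% did either), but the siLuc library of Set 1 experiment 3 lay within their range. The difference from siLuc was 0.61 on the log2 scale (SE 0.269, 95% interval 0.03 to 1.19, edgeR adjusted p 0.615), and 1.04 without that siLuc library (adjusted p 0.486). The difference from untreated cells was 0.55 (SE 0.262, adjusted p 0.304, edgeR).

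Hspa1b, the near copy, did not pass either. It was at 6.17, 7.39 and 5.66 CPM in untreated cells, 7.39, 6.35 and 5.51 CPM in siLuc and 5.84, 4.47 and 6.01 CPM in siStag3, with all groups overlapping. Its log2 difference in siStag3 was -0.23 from siLuc (SE 0.146) and -0.23 from untreated cells (SE 0.144), with edgeR adjusted p of 0.716 and 0.440. Within Set 1 these differences were -0.39 and -0.37, and within Set 3, with 1 library per group, 0.11 and 0.08. When both genes were counted as one, the sum was 6.98, 8.15 and 6.52 CPM in untreated cells, 7.99, 7.53 and 6.08 CPM in siLuc and 7.11, 5.80 and 7.06 CPM in siStag3. The summed gene showed a log2 difference of -0.11 in siStag3 from siLuc, with an SE of 0.126 and an edgeR adjusted p of 0.839. Hspa1a made up 7.57% to 15.8% of the sum in the 6 untreated and siLuc libraries and 15% to 22.8% in siStag3.

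**Figure D3:**
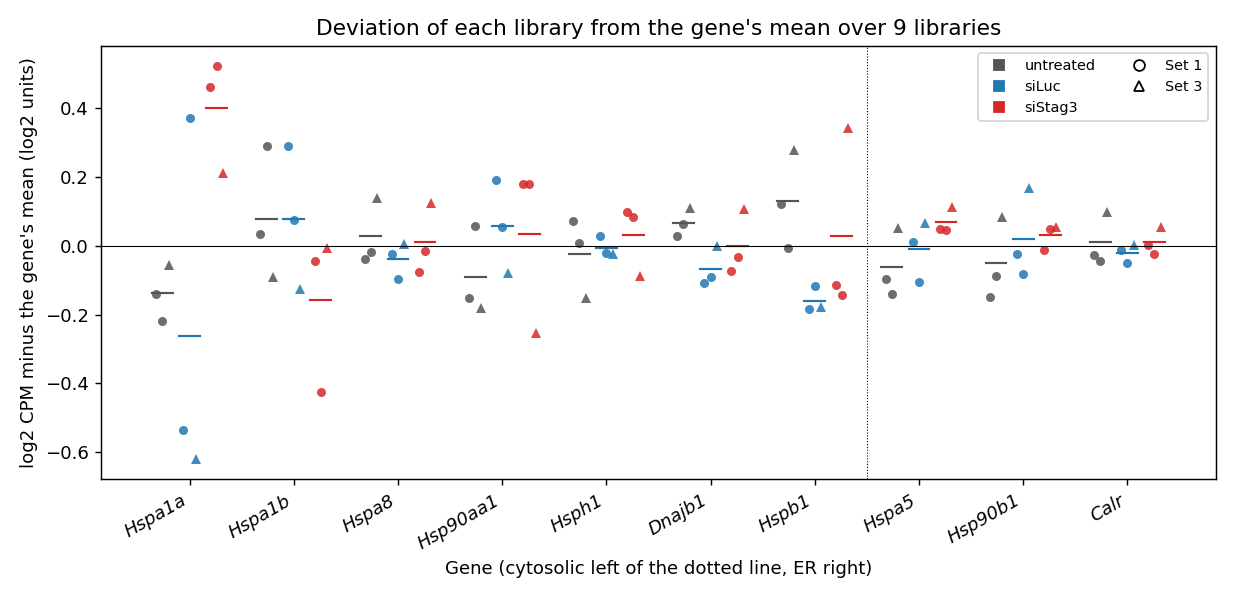
Deviation of each library from the gene's mean over 9 libraries, in log2 CPM, for the 7 cytosolic and 3 ER genes; colours give the group, shapes the set and short lines the group mean. Hspa1a spreads most (a range of 1.14) and Calr least (0.15), and the 2 Set 3 triangles of Hspb1 in untreated and siStag3 cells stand above its other libraries.

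The third comparison, siStag3 against untreated cells, combines transfection with reduced Stag3 and shares its libraries with both others. Again 0 of 10 members passed in edgeR and 0 in DESeq2, where edgeR passed 2.53% of all genes (1.07% higher and 1.46% lower). Hspa5 had the smallest unadjusted p of the members (0.0273, edgeR). BiP, its product, is the ER HSP70 and the usual readout of ER stress. Hspa5 was at 481.5, 466.9 and 533.5 CPM in untreated cells, 518.6, 479.1 and 539.3 CPM in siLuc and 532.7, 531.6 and 557.1 CPM in siStag3. The untreated library of Set 3 lay just above both siStag3 libraries of Set 1, so the groups overlapped. The log2 difference between siStag3 and untreated cells was 0.13 (SE 0.0533, 95% interval 0.02 to 0.25, edgeR adjusted p 0.230).

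Hsp90b1 was at 633, 660 and 744 CPM in untreated cells, 690, 663 and 789 CPM in siLuc and 696, 727 and 729 CPM in siStag3. Calr was at 611, 604 and 666 CPM, 617, 601 and 623 CPM, and 623, 612 and 646 CPM in the same order. Calr was the steadiest member, with all 9 libraries between 601 and 666 CPM. In siStag3 against untreated cells Hsp90b1 differed by 0.08 (SE 0.0571) and Calr by 0.00 (SE 0.0502), with edgeR adjusted p of 0.482 and 0.993. Hspa8 was at 3609, 3663 and 4086 CPM in untreated cells and 3516, 3673 and 4044 CPM in siStag3, a difference of -0.02. Hsph1, a nucleotide exchange factor of HSP70, was at 274, 262 and 235 CPM and at 279, 276 and 245 CPM, a difference of 0.06.

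For the 8 members whose mean was 3 log2 CPM or more, the 24 intervals (95%, not adjusted for their number) over the 3 comparisons lay between 0.722-fold and 1.29-fold. For Hspa1a the intervals reached 2.28-fold in siStag3 against siLuc and 2.16-fold against untreated cells. They reached down to 0.634-fold for Hspa1a in siLuc against untreated, and to 0.686-fold for Hspa1b. A missed threshold does not show that levels were equal. As the samples are bulk RNA, fewer cells with a high level and less RNA per cell cannot be told apart.

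**Figure D4:**
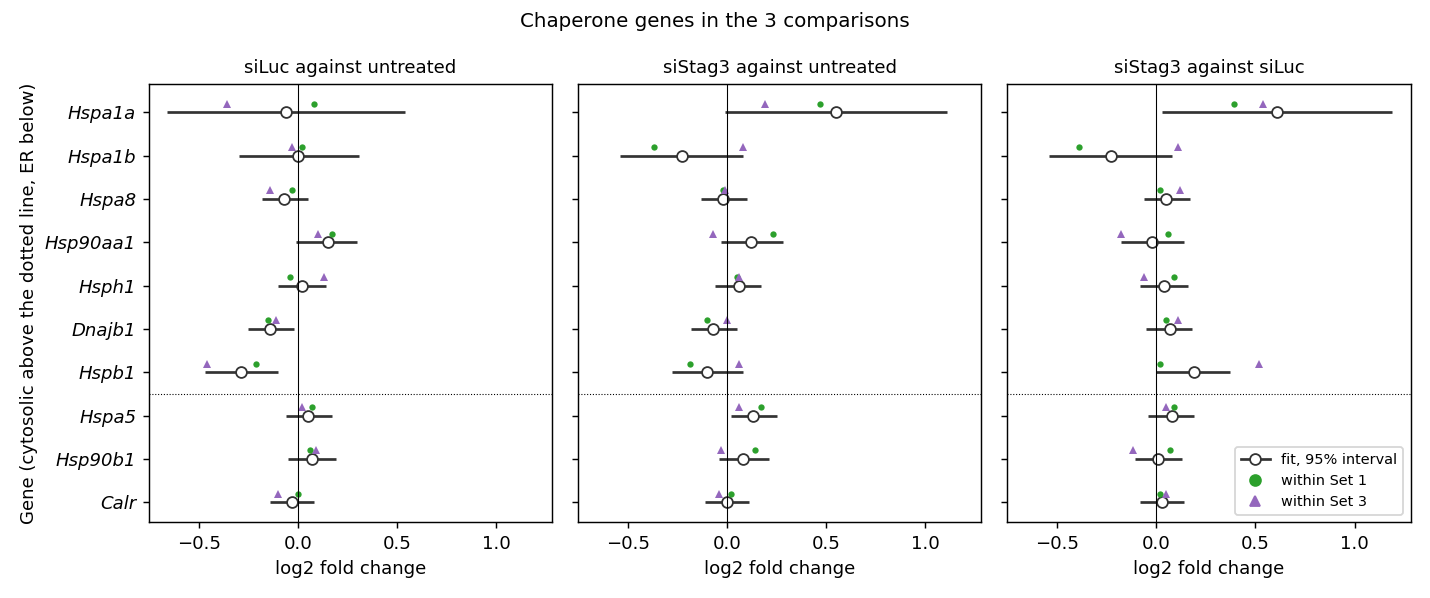
Log2 fold changes of the 10 chaperone genes in the 3 comparisons: open circles with lines are the edgeR estimates with 95% intervals, green points the difference within Set 1 and purple triangles the difference within Set 3 (1 library per group). No gene passed in any panel, and Hspa1a has the widest interval in each (-0.66 to 0.54 in siLuc against untreated and 0.03 to 1.19 in siStag3 against siLuc).

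The regulators and partners of the members were read from 6 further lists. Of the heat shock factors, 3 of 4 genes were tested. The mean of Hsf1 was 32.6 CPM without treatment, 27.2 CPM with siLuc and 29.4 CPM with siStag3, a log2 difference of -0.27 in siLuc against untreated (SE 0.0916, edgeR adjusted p 0.0900). No factor passed in any of the 3 comparisons. Of 34 other cytosolic chaperones and co-chaperones, 1 fell in siLuc against untreated, 1 fell in siStag3 against untreated and 0 passed in siStag3 against siLuc. Of all genes, 2.55%, 1.46% and 0.014% were lower. Without the set term neither fall passed. With the GC correction 1 rose and 1 fell, then 1 rose and 2 fell, the riser in both being Fkbp5, an HSP90 co-chaperone (0.15 and 0.17, edgeR adjusted p 0.0329 and 0.0135). Of all genes, 7.01% and 6.79% passed with that correction. DESeq2 called 5 higher (Bag4, Cacybp, Ppid, Ptges3 and St13) and Hspb8 lower in siLuc against untreated. With the GC correction in edgeR these 5 differed by 0.10, 0.08, 0.07, 0.18 and 0.08, and none of them passed. In that comparison DESeq2 also called more of all genes than edgeR did. The first fall was Hspb8, a small heat shock protein gene that acts with Bag3, at 90.1, 89.7 and 106 CPM in untreated cells and 77.2, 77.9 and 89.1 CPM in siLuc. The groups did not overlap, though the siLuc library of Set 3 lay just below the untreated libraries of Set 1. Hspb8 fell by 0.23 on the log2 scale (SE 0.0546, adjusted p 0.0354 in edgeR, 0.593 without the set term). The other was Hspa2, the testis-enriched HSP70, at 8.08, 6.53 and 6.26 CPM in untreated cells and 4.78, 3.81 and 4.49 CPM in siStag3, with no overlap. It fell by 0.67 on the log2 scale (SE 0.137, edgeR adjusted p 0.0194, 0.411 without the set term), and its difference between siStag3 and siLuc was -0.25 (SE 0.142, adjusted p 0.693). The list medians were 0.03, 0.05 and 0.01 in siLuc against untreated, siStag3 against untreated and siStag3 against siLuc, where the medians of all genes were 0, -0.01 and 0.

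In edgeR with the set term the lists of other ER chaperones and of ER stress sensors gave no call between treatments. Of 22 other ER chaperones and folding enzymes tested (of 24 symbols listed), 0 passed in each of the 3, with medians of -0.03, 0.02 and 0.01 in the same order. The smallest p in siLuc against untreated belonged to the disulfide oxidase gene Ero1a (0.25, SE 0.0725, edgeR adjusted p 0.0612), which DESeq2 called (adjusted p 0.0281). Of 18 sensors, transducers and degradation genes, 0 passed in each. With the GC correction the degradation gene Edem2 was lower in siStag3 against untreated (-0.21, edgeR adjusted p 0.0445, and 0.0897 without the correction), and DESeq2 called Atf6b lower in siLuc against untreated (-0.26, adjusted p 0.0497). In siLuc against untreated with the GC correction, Atf6b differed by -0.07 and Ero1a by 0.09 (edgeR adjusted p 0.507 and 0.23). The sensor genes Atf6, Ern1 and Eif2ak3 differed by 0.03, -0.20 and -0.09 between siStag3 and untreated cells, and Xbp1, the target of IRE1, by 0.01, with edgeR adjusted p from 0.381 to 0.951. Counts per gene do not show the splicing of Xbp1 by which IRE1 acts. Of 8 subunits of the cytosolic chaperonin CCT and 11 mitochondrial chaperones and proteases, 0 passed in each comparison, and Hspd1, the mitochondrial HSP60, differed by 0.17 in siLuc and 0.18 in siStag3 from untreated cells (edgeR adjusted p 0.0838 and 0.120). Hspd1 passed in the first with DESeq2 (0.0458) and in the second with the GC correction (0.0476).

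More members passed the threshold between sets of libraries than between treatments. That is a count of calls and not of sizes. Some members, among them Hspa1a and Hspb1, differed by more in a treatment comparison, and others by less. The set test also compares 6 libraries with 3. In Set 3 against Set 1, with the group in the fit, 5 of 10 passed in edgeR, 3 higher (Hspa8, Hspb1 and Hsp90b1) and 2 lower (Hsp90aa1 and Hsph1). The shares of all genes were 21.4% higher and 21.2% lower, so counts of this kind are near the background. Hsp90aa1 ran from 6474 to 8214 CPM in the 6 Set 1 libraries and from 6025 to 6814 CPM in the 3 Set 3 libraries. The difference was -0.26 on the log2 scale (SE 0.0647, adjusted p 0.00623 in edgeR), and without the siStag3 library of Set 3 it was -0.17 (adjusted p 0.0757). Hsp90b1 ran from 633 to 727 CPM in Set 1 and from 729 to 789 CPM in Set 3, so the ranges nearly touched. It was higher by 0.15 (SE 0.0492, edgeR adjusted p 0.0221), and did not pass without the untreated or the siLuc library of Set 3 or the siLuc library of Set 1 experiment 3 (adjusted p 0.137, 0.0887 and 0.0560). Hspb1 was higher by 0.23 and Hspa8 by 0.13 (edgeR adjusted p 0.0242 and 0.0298), and Hsph1 was lower by 0.13 (a value of -0.13, adjusted p 0.0405). The call of Hspb1 ended without the untreated library of Set 3 or any 1 of the 3 siStag3 libraries, and its value was 0.10 without the siStag3 library of Set 3. That of Hspa8 ended without any 1 of the same 4 libraries, the untreated library of Set 1 experiment 3 or the siLuc library of Set 1 experiment 3. That of Hsph1 held in 2 of 9 fits, those without the siLuc library of Set 1 experiment 3 or of Set 3. The difference of each treatment comparison between the sets was tested too. It passed for 0 members in siLuc against untreated, 0 in siStag3 against untreated and 1 in siStag3 against siLuc (Hspb1), where 0.014%, 0.00702% and 1.12% of all genes passed in edgeR.

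The set differences of the members changed with a correction for GC content. Over 14226 genes the Spearman correlation of the set difference with GC content was 0.493, and 0.0089 after the GC correction, a step added after the data were seen. With the correction the 3 ER members were all higher in Set 3, Hsp90b1 by 0.32 (edgeR adjusted p 7.99e-07), Hspa5 by 0.22 (0.000139) and Calr by 0.09 (0.0452). None of the 7 cytosolic members passed as higher, and Hspa1b passed as lower (-0.32, edgeR adjusted p 0.0232). Hspa8 and Dnajb1 did not pass with the correction, but their values stayed above 0 in each alternative (at least 0.09 and 0.05). Hspb1 went from 0.23 to -0.04 and Hsp90aa1 from -0.26 to -0.09. Of all genes, 41.3% passed in this fit, 20.5% higher and 20.8% lower. Of the 22 other ER chaperones, 13 were higher and 1 lower with the correction, and 9 were higher and 4 lower without it. More calls were higher than lower in some other lists too. With the correction, 10 of 34 other cytosolic chaperones were higher and 3 lower, and all 3 heat shock factors tested were higher. Of 18 ER stress sensors and degradation genes, 4 were higher and 2 lower. Of 8 CCT subunits 1 was higher and 1 lower, and of 11 mitochondrial genes 1 was higher. What a set is, and whether it differs in culture, library preparation or sequencing, cannot be told apart here.

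**Figure D5:**
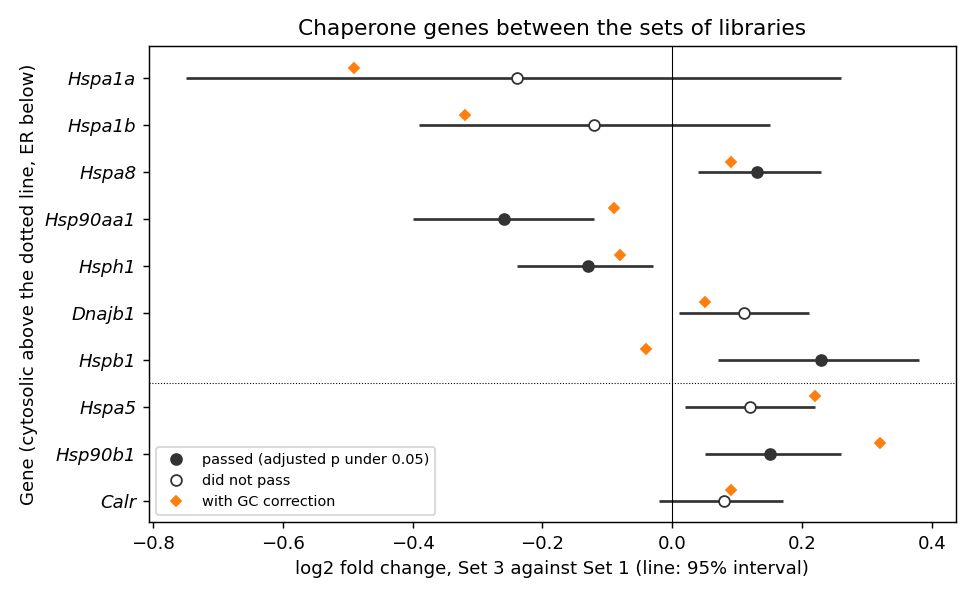
Log2 fold change of the 10 chaperone genes in Set 3 against Set 1, with 95% intervals; filled circles passed (edgeR adjusted p under 0.05), open circles did not, and orange diamonds are the values after the GC correction. The diamonds of the ER genes lie at 0.22, 0.32 and 0.09, and that of Hspb1 at -0.04.

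Genes of like pattern were named for the member of each class with the largest range over the 9 libraries, among those whose mean was 3 log2 CPM or more. For Hspb1, the 3 genes nearest by the root-mean-square difference of centred log2 CPM, out of 9059 searched, were Vat1 (0.0254), Fcsk (0.0273) and Dad1 (0.0339). For Hsp90b1 they were Luc7l (0.0269), Ndufaf5 (0.0292) and Sec11a (0.0334). Hspb1 itself ranged over 0.53 log2 units and Hsp90b1 over 0.32.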

How the data were processed

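The authors deposited whole-number counts per gene for 9 libraries; the submitters' processing notes name FastQC, Salmon, DESeq2 and GRCm39 with no roles. Salmon gives estimated counts, so the whole numbers may be rounded. The annotation and strand setting are not given in the sources used here. The smallest sum over libraries was 9 counts. Column names give group, set and experiment, and not the replicate numbers of the labels. The members, lists and tests were chosen with earlier results of these data known. Counts were tested with edgeR 4.0.16 in R 4.3.3 (filterByExpr, TMM factors, estimateDisp, robust glmQLFit, glmQLFTest) in 1 fit of 9 libraries with group and set, adjusted over 14246 genes (threshold 0.05). SE is the absolute log2 fold change over the square root of F. The coefficient of variation was 7.62% with the set and 14.6% without. The difference of a comparison between sets was an interaction term (3 residual degrees of freedom). On simulated data for siLuc against untreated (14246 genes), 85% of genes changed by 0.5 and 99% of those changed by 1 (log2) were recovered, with 12 false calls of 196. Recovery of smaller changes, the size of most member differences between treatments, is not given by these values. Alternatives were no set term, GC correction (20 bins, GENCODE M21 transcripts, 16604 of 16636 IDs), DESeq2 size factors, total count scaling, no filter, the Wald test of DESeq2 1.42.0, Set 1 alone, each library left out and Hspa1a plus Hspa1b summed. A block of set and experiment, and the other lists under the alternatives, were added after the data were seen. All 10 members, Stag3, Hsf1 and the ER sensors are always named; of each list, up to 3 rises and 3 falls past the threshold, or the smallest p. Hspa1a and Hspa1b share sequence, so the counter may split them.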

Additional observations from a re-analysis of the deposited data

Results flagged for a closer look

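Among the 10 members and 3 treatment comparisons, the interaction with the set passed for Hspb1 in siStag3 against siLuc, close to the threshold. In siStag3 against siLuc it differed by 0.02 on the log2 scale within Set 1 and by 0.52 within Set 3, and the interaction was 0.50 (SE 0.104, edgeR adjusted p 0.0496), where 1.12% of all genes passed. Its levels were 309, 324 and 311 CPM in siLuc and 324, 318 and 446 CPM in siStag3, the third value of each being Set 3. The value of Set 3 rests on 1 library per group, of experiment 1 in siLuc and experiment 5 in siStag3. Treatment and experiment therefore cannot be told apart within Set 3, nor set and experiment in the interaction. The 2 libraries of Set 3 also differed in mitochondrial share (5.98% and 4.10%) and on the first principal component of all genes (-4.15 and -24.67). The part of either in the result was not tested. With the GC correction, added after the data were seen, the interaction was 0.15 (SE 0.0819, edgeR adjusted p 0.686).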

How the results depend on the processing

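No member passed in a treatment comparison under any edgeR alternative, and the DESeq2 Wald test called Hspb1 in siLuc against untreated. Over all comparisons, the set included, and Stag3, 1 called value reversed: Hspb1 in Set 3 against Set 1 was -0.04 with the GC correction. The count of genes past the threshold was 598 in siLuc against untreated, 361 in siStag3 against untreated and 4 in siStag3 against siLuc. Without the set term these were 1, 2 and 0 (with 1220, 847 and 307 below 0.05 unadjusted). The GC correction gave 998, 967 and 71. DESeq2 gave 1296 in the first and 22 in the last. Set 1 alone gave 298 and 949 in siLuc and siStag3 against untreated. Leaving out 1 library gave 111 to 387, 78 to 1591 (the latter without the siStag3 library of Set 3) and 0 to 4 genes, and 4162 to 6355 in Set 3 against Set 1 (6076). Total count scaling took the share of higher calls in siLuc against untreated from 235 of 598 to 161 of 761, in siStag3 against untreated from 153 of 361 to 100 of 356 and in Set 3 against Set 1 from 3053 of 6076 to 3834 of 6212, and called 6 members higher and 1 lower between the sets. The column names hold set and experiment numbers and not the replicate numbers of the labels; with set and experiment as a block, added later and with both Set 3 experiments in 1 level, 317 genes passed in siLuc against untreated and no call of a member changed. The Stag3 difference in siStag3 against siLuc stayed between -0.76 and -0.67 in the alternatives run, with an edgeR adjusted p of 0.605 without the set term (-0.71) and 0.0582 (-0.67) without the siStag3 library of Set 1 experiment 1. The cause of these changes was not tested. Low counts (18 to 45) limit Hspa1a.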

Other observations

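Beside the 3 ER members, 32 genes had an ER stress element in the promoter window, of which 18 were tested. They include the ER genes Canx, Creld2, Derl3, Dnajc3, Pdia6 and Syvn1. In siLuc against untreated 1 of the 18 fell, Calr4, a calreticulin relative, at 10.2 CPM in untreated and 7.76 CPM in siLuc (log2 fold change -0.40, SE 0.0980, edgeR adjusted p 0.0366), where 2.55% of all genes were lower. Without the set term Calr4 did not pass (-0.40, adjusted p 0.613). None passed in the other treatment comparisons in edgeR with the set term, and Calr4 had an adjusted p of 0.0502 in siStag3 against untreated. With the GC correction 2 were lower in siLuc against untreated (Calr4 and Zfp57), and 1 was higher (Hnrnpa3) and 1 lower (Calr4) in siStag3 against untreated. Of all genes, 7.01% and 6.79% passed in these 2 comparisons with the correction. DESeq2 called Hnrnpa3 higher in both and Calr4 lower in the first. In Set 3 against Set 1, 8 were higher and 2 lower in edgeR, and 10 and 1 with the GC correction, where 21.4% and 21.2% of all genes were higher and lower (20.5% and 20.8% with the correction). The largest rises were those of the ER ubiquitin ligase gene Syvn1 (0.59, SE 0.0887, adjusted p 0.000261), Calr4 (0.54, adjusted p 0.000255) and Zfp57 (0.38, adjusted p 0.000145) in edgeR. The falls were those of Xlr3c (-0.70, SE 0.0681, adjusted p 8.49e-06) and the lectin chaperone gene Canx (-0.22, SE 0.0625, adjusted p 0.0129). Of the ER stress sensors, Atf6 was lower in Set 3 by -0.42 (SE 0.0570, edgeR adjusted p 9.57e-05), and Hsf1 was higher by 0.48 (SE 0.0780, adjusted p 0.000351).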
